A study of Homo sapiens with 10 samples.

Results

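The insulin-like growth factor binding proteins (IGFBPs) form a family of secreted proteins, and 6 of its genes, IGFBP2 to IGFBP7, have a row among the 12373 genes of the deposited matrix. The 6 genes were chosen by name, for belonging to the family, with the levels of these populations already known, and IGFBP5 was picked out because its level was highest after 5 µM olaparib. The order of their levels across the populations is therefore a description and carries no test. IGFBP1 was not analysed here.

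The libraries come from Kuramochi, a human ovarian cancer line labelled epithelial and mutant for BRCA2, a gene of homologous recombination repair. Olaparib inhibits PARP enzymes, and cells that lack homologous recombination are usually sensitive to it. One untreated population (C) and 9 populations of 1 serial escalation, kept in 1, 2.5, 5, 10, 20, 40, 80, 160 or 320 µM olaparib until confluent and called T1 to T320, were profiled by inDrop, a droplet method that counts molecular identifiers (UMIs) per cell. All 10 populations share the BRCA2 mutation and a medium with fetal bovine serum and added insulin, a hormone that acts on the same receptor family. With 1 library per population, no difference between populations could be tested against replicate spread. Intervals given here are exact 95% intervals that cover counting error only.

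Insulin-like growth factors (IGF1 and IGF2) act through the receptor tyrosine kinase IGF1R, while IGF2R takes up IGF2 without that signal. IGFBP2 to IGFBP6 bind these ligands with high affinity, which can keep them from the receptor or hold them near the cell, and proteases such as PAPPA and HTRA1 cut the binding proteins and release the ligand. IGFBP7 binds IGFs weakly and is often grouped with more distant relatives such as CTGF and CYR61. In cancers, IGFBP3 and IGFBP5 are known both as brakes on IGF action and for effects that do not need IGF.

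The 6 genes lie on 5 chromosomes (GENCODE 29, GRCh38). IGFBP2 (chr2:216632828-216664436, plus strand) and IGFBP5 (chr2:216672105-216695525, minus strand) are neighbours whose 3' ends face each other across 7668 bases. IGFBP7 lies at chr4:57030773-57110385 (minus), IGFBP3 at chr7:45912245-45921874 (minus), IGFBP6 at chr12:53097436-53102345 (plus) and IGFBP4 at chr17:40443461-40457731 (plus). All are protein-coding genes. In the last 500 bases of their transcripts, none of the 31-base words of the 6 genes occurred in another gene's transcripts, so reads there could be told apart from those of other genes.

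IGFBP4, IGFBP5 and IGFBP7 were all highest in T5. IGFBP7 had no promoter window, so a promoter word cannot be set against that peak. Of the windows given for the family, those of IGFBP5 and IGFBP4 held a TATA-like word just before the start. The 120 bases before each RefSeq transcript start (GRCh38.p14), written 5′ to 3′ on the gene's strand, are shown with that word in capitals: chr2:216695550-216695669 on the minus strand for IGFBP5 and chr17:40443330-40443449 on the plus strand for IGFBP4.
IGFBP5: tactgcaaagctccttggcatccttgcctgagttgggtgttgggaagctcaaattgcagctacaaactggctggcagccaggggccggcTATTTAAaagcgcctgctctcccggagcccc
IGFBP4: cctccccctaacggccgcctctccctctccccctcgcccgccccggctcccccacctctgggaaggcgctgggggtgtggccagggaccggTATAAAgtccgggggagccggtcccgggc
The word TATTTAA began 31 bases before the start of IGFBP5, in a sequence of 57.5% G and C. TATAAA began 29 bases before the start of IGFBP4, where G and C made up 75.8%. On both strands of the 35116 RefSeq promoter windows searched, TATAAA was present in 11.5% and TATTTAA in 4.52%. Windows were given for 5 of the 6 genes, 7 windows in all; IGFBP7 had none. GGGCGG, found in 45.0% of all windows, was in windows of IGFBP2, IGFBP3, IGFBP4 and IGFBP6 and not in that of IGFBP5. GTAAACA (3.42% of windows) was found 186 bases before the start of IGFBP6, and neither TGANTCA (7.71%) nor CACGTG (7.26%) was in any window of the family. A match describes letters and shows no bound factor.

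The matrix held 18209 cells and 51277639 UMIs, from 726 cells and 1976069 UMIs in T5 to 2645 cells in T160 and 9343704 UMIs in C. Levels are UMIs summed over the cells of a population and scaled to counts per 1000000 of its total (CPM). The labelled epithelial type was only partly borne out by its markers: KRT8 stood at 1027 CPM in C, while EPCAM was listed at 0 in 7 of the 10 libraries, C included. The ovarian lineage factor PAX8 was present in every library (151 CPM in T80 to 544 CPM in T1). Other lineage markers did not hold: WT1 went from 135 CPM in C to 0 in T160 and T320. SOX17 went from 390 CPM in C to 5.45 CPM in T80, EMX2 and MECOM varied, and MUC16 was above 0 only in T20. The 6 lineage markers summed to 932 CPM in C, 1072 CPM in T1, 184 CPM in T80 and 247 CPM in T320. Each library lists a gene either at 0 or in about 1% or more of its cells, so a 0 in these files can stand for a low level. Across libraries, 1984 cells carried a barcode that also occurred in another library.

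IGFBP5 was lowest in C and T320 and highest in T5. It is a matrix-bound binding protein that cells of mesenchymal and epithelial origin secrete. Its level was 46.6 CPM in C, 723 at 1 µM, 534 at 2.5 µM, 1082 at 5 µM, 510 at 10 µM, 375 at 20 µM, 181 at 40 µM, 353 at 80 µM, 120 at 160 µM and 53.1 at 320 µM. C and T320, the first and last populations, were the lowest, and T5 the highest. T5 was 23.3-fold above C (21.0 to 25.8). In the order of levels, T2.5 and T10, T20 and T80, and T320 and C did not differ beyond counting error. The level fell at each step from T5 to T40, rose at T80 and fell again at T160 and T320.

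More cells held IGFBP5 transcripts in T5 than in C, and a minority held many. In T5, 55.8% of cells had at least 1 IGFBP5 UMI, 24.1% had at least 3 and 8.82% at least 10. In C the same shares were 9.32%, 2.22% and 0.434%, and in T1 they were 52.2%, 20.8% and 2.72%. The 10% of T5 cells with the most IGFBP5 held 62.9% of its UMIs there, and the highest cell had 78. With every cell thinned to 1000 UMIs, which left out 10 to 614 cells per population, the share with an IGFBP5 UMI was 4.12% in C, 38.5% at 1 µM, 30.1% at 2.5 µM, 43.1% at 5 µM, 21.7% at 10 µM, 20.7% at 20 µM, 11.3% at 40 µM, 20.2% at 80 µM, 8.17% at 160 µM and 4.22% at 320 µM. The thinned shares put the same populations, T5 and T1, at the top and C and T320 at the bottom. The intervals of the T5 share (38.8% to 47.4%) and the T1 share (36.3% to 40.7%) overlapped. The libraries hold 1 line, so no cell type known to lack IGFBP5 gave a share for free RNA.

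**Figure D1:**
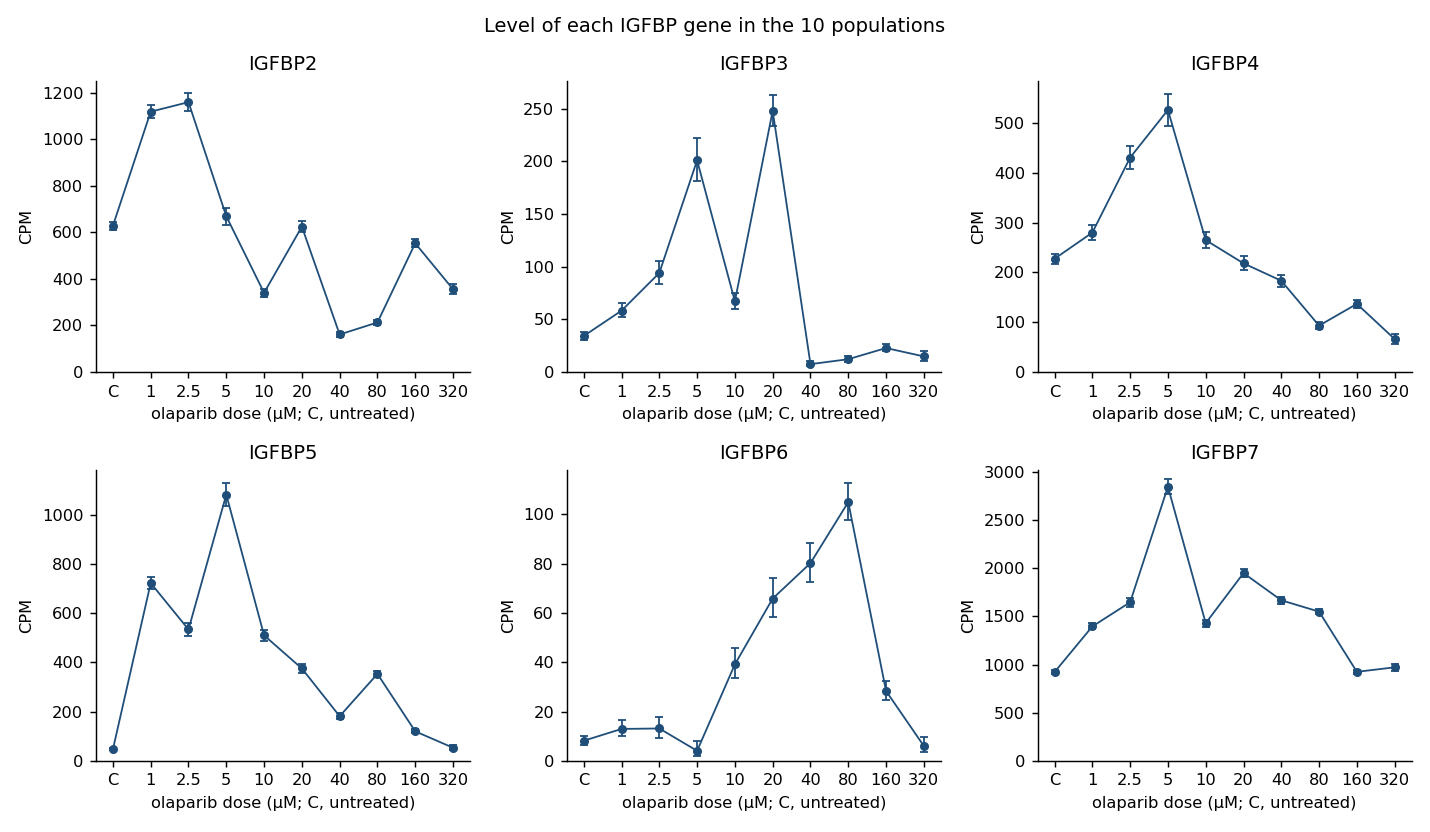
Level of each of the 6 IGFBP genes (CPM, linear axes from 0) in the untreated population (C) and the 9 olaparib populations, 1 library each; bars are exact 95% Poisson intervals and cover counting error only. IGFBP4, IGFBP5 and IGFBP7 were highest at 5 µM, IGFBP2 at 2.5 µM, IGFBP3 at 20 µM and IGFBP6 at 80 µM.

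**Figure D2:**
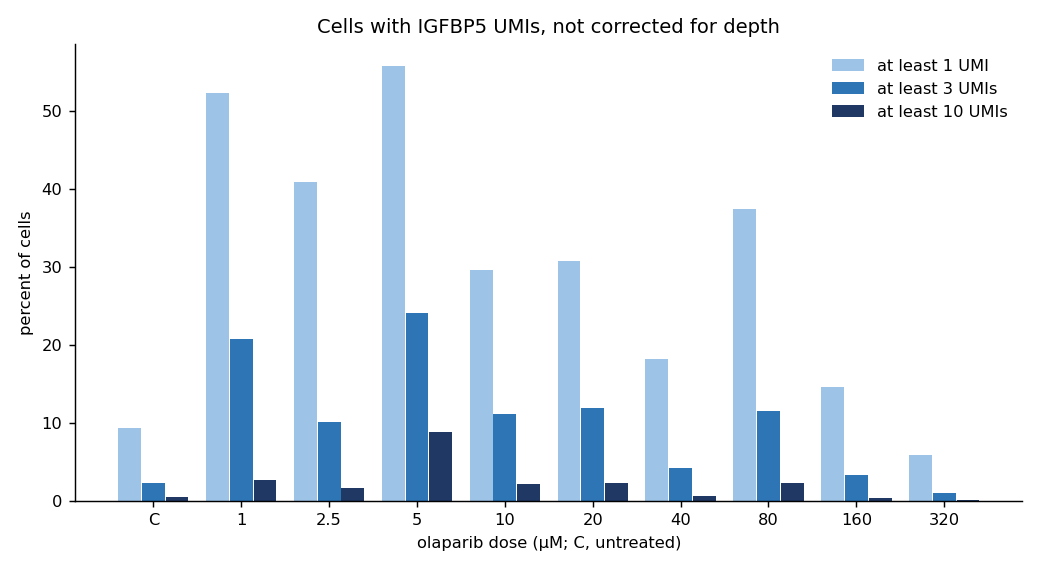
Percent of cells with at least 1, 3 or 10 IGFBP5 UMIs in each population, without correction for the depth of the cells. At 5 µM the shares were 55.8%, 24.1% and 8.82%, and in C 9.32%, 2.22% and 0.434%.

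IGFBP7, the weakly binding relative that is deposited in matrix, shared the T5 peak but was widespread throughout. Its level was 921 CPM in C, 1396 at 1 µM, 1647 at 2.5 µM, 2847 at 5 µM, 1429 at 10 µM, 1950 at 20 µM, 1667 at 40 µM, 1549 at 80 µM, 924 at 160 µM and 971 at 320 µM. T5 was 3.09-fold above C (2.99 to 3.20), and C and T160 at the bottom of the order did not differ beyond counting error. After thinning, 57.6% of C cells and 86.1% of T5 cells had an IGFBP7 UMI, so the gene was detected in at least 48.5% of thinned cells in every population.

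IGFBP4, a soluble binding protein cleaved by PAPPA, also peaked in T5 and was lowest in T320. Its level was 227 CPM in C, 280 at 1 µM, 430 at 2.5 µM, 526 at 5 µM, 265 at 10 µM, 218 at 20 µM, 183 at 40 µM, 93.2 at 80 µM, 137 at 160 µM and 66.2 at 320 µM. T320 lay below all others, at 7.95-fold less than T5 (6.79 to 9.34). C and T20 did not differ beyond counting error. The share of thinned cells with an IGFBP4 UMI went from 17.6% in C to 37.8% in T5 and 6.14% in T320.

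IGFBP3, the main carrier of IGFs in serum, had 2 separate maxima. Its level was 34.2 CPM in C, 58.3 at 1 µM, 94.1 at 2.5 µM, 201 at 5 µM, 67.1 at 10 µM, 248 at 20 µM, 7.53 at 40 µM, 12.2 at 80 µM, 22.8 at 160 µM and 14.9 at 320 µM. T20 was the highest and T5 next, with T10 between them at about the level of T1. From T20 to T40 the level dropped 32.9-fold (23.8 to 46.8), the widest gap between neighbouring doses in this family's record, and it stayed below C in all 4 populations from T40 on. IGFBP3 was sparse: 15.6% of thinned T20 cells and 0.675% of thinned T40 cells had a UMI of it.

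IGFBP2, a binding protein often high in ovarian cancers, was highest early and lowest at T40. Its level was 628 CPM in C, 1118 at 1 µM, 1159 at 2.5 µM, 669 at 5 µM, 340 at 10 µM, 624 at 20 µM, 161 at 40 µM, 213 at 80 µM, 553 at 160 µM and 356 at 320 µM. T1 and T2.5 did not differ beyond counting error, nor did C and T20. The highest and lowest populations differed 7.18-fold (6.65 to 7.75). Unlike its chromosomal neighbour IGFBP5, IGFBP2 was close to C in T5: the difference of T5 from C on the scale log2(CPM + 10) was 0.09 for IGFBP2 and 4.27 for IGFBP5.

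IGFBP6, which prefers IGF2 over IGF1, was highest from T20 to T80, in 2 of which (T40 and T80) IGFBP2 and IGFBP3 were at their lowest. Its level was 8.13 CPM in C, 12.9 at 1 µM, 13.1 at 2.5 µM, 4.05 at 5 µM, 39.1 at 10 µM, 65.8 at 20 µM, 80.2 at 40 µM, 105 at 80 µM, 28.3 at 160 µM and 6.02 at 320 µM. T10 to T80 were all above the earlier populations, and T160 and T320 fell back. T80 was 25.9-fold above T5 (13.1 to 60.3), where only 8 UMIs were counted. Cells with an IGFBP6 UMI made up 1.10% of T5 and 1.05% of T320. These shares were near the lowest nonzero share of any gene in the same libraries, 0.964% and 0.975%. C, T320 and T5 were the lowest, and neighbours in that order did not differ beyond counting error.

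Contrasts of T1, T5, T40 and T320 with C set these levels beside all measured genes. A gene was measured in a contrast when it had at least 100 UMIs over all populations and at least 50 CPM in 1 of the 2 populations, and it counted as higher or lower at a difference of at least 1 on the log2(CPM + 10) scale. In T1, 1 of the 5 measured IGFBP genes was higher (IGFBP5) and none was lower, beside 7.57% higher and 4.83% lower of 4186 genes. In T5, 4 of 5 were higher (IGFBP3, IGFBP4, IGFBP5 and IGFBP7) and none was lower, beside 7.87% and 4.72% of 4219 genes. In T40, 2 of 5 were higher (IGFBP5 and IGFBP6) and 1 was lower (IGFBP2), beside 8.88% and 8.76% of 4234 genes. In T320, none of 4 was higher and 1 was lower (IGFBP4), beside 15.4% and 11.6% of 4617 genes. Because the genes were chosen with these levels known, nothing is read from the counts. The median difference of the measured IGFBP genes was 0.63 in T1, 1.62 in T5, 0.85 in T40 and -0.36 in T320, against -0.07, -0.01, -0.03 and 0.12 for all measured genes. Under TMM scaling the median of all genes in T320 moved to -0.14, IGFBP2 counted as lower there as well, and the split of all measured genes into higher and lower was 447 to 821 in place of 712 to 537. In T5 that split was 289 to 270 in place of 332 to 199, with the same number of IGFBP genes called.

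The ligand IGF2 peaked in the same population as IGFBP5. Its level was 775 CPM in C, 5663 at 1 µM, 7311 at 2.5 µM, 9210 at 5 µM, 7046 at 10 µM, 3866 at 20 µM, 3743 at 40 µM, 1949 at 80 µM, 2373 at 160 µM and 420 at 320 µM. T5 was the highest and T320 the lowest, and IGF2 UMIs were found in 97.4% of T5 cells and 27.4% of T320 cells. At its 3' end, 82.3% of the 31-base words also occur in the read-through gene INS-IGF2 or an overlapping gene, so its counts could have been split or shared. Over the 10 populations, the log levels of IGF2 and IGFBP5 had a Pearson correlation of 0.91, and those of IGFBP5 and IGFBP7 one of 0.82. IGFBP6 and IGFBP2 had one of -0.64. These are descriptions over 10 steps of 1 escalation, whose points share each library's depth and composition.

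Of 8 listed ligands and receptors, 4 were in the matrix and 3 were measured. IGF2 and IGF1R were at least 2-fold above C in T1, IGF2 and IGF2R in T5 and in T40, and IGF1R and IGF2R in T320, with none lower. Of all measured genes, 7.57% were higher in T1, 7.87% in T5, 8.88% in T40 and 15.4% in T320. The lower shares were 4.83%, 4.72%, 8.76% and 11.6%. IGF1R, the signalling receptor, ran from 38.4 CPM in C to 121 CPM in T160, and IGF2R, the uptake receptor, from 76.1 CPM in C to 275 CPM in T320. The insulin receptor INSR was listed at 0 up to T5 and stood at 22.6 CPM in T160 (172 UMIs) and 26.5 CPM in T320 (75 UMIs). At T320, then, IGF2R was at its highest, INSR was near its T160 level, IGF2 was below C and IGFBP5 was within counting error of C.

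Among 16 listed IGFBP proteases and their inhibitors, 12 were in the matrix, and few were measured. In T1, 0 of 4 measured genes were called in either direction. In T5, HTRA1 was the 1 of 5 that was higher, at 64.8 CPM against 9.20 CPM in C (7.04-fold, 5.31 to 9.36). In T40, 4 of 7 were higher, among them HTRA1, the membrane protease ADAM12 and the metalloprotease inhibitor TIMP1, which stood at 499 CPM against 211 CPM in C. In T320, 1 of 6 was higher, and none was lower in any of the 4 contrasts. Beside these counts, 7.57% of all measured genes were higher in T1, 7.87% in T5, 8.88% in T40 and 15.4% in T320. The lower shares were 4.83%, 4.72%, 8.76% and 11.6%. The 1 of 6 in T320 is close to the share of all genes. PAPPA, the main protease of IGFBP4, stayed at or below 15.7 CPM and was listed at 0 in T2.5, T160 and T320. STC2, an inhibitor of PAPPA, had 31.8 CPM in C, 27.3 CPM in T5 and 80.4 CPM in T160.

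Of the relatives that carry an IGFBP domain, CTGF and CYR61 were highest in T40. Of 19 listed symbols, 5 were in the matrix. None of 3 measured was called in T1. CYR61, CTGF and KAZALD1 were higher in T5 (3 of 4), CYR61 and CTGF in T40 (2 of 3), and CYR61, CTGF and the membrane protein CRIM1 in T320 (3 of 3). The higher shares of all measured genes were 7.57% in T1, 7.87% in T5, 8.88% in T40 and 15.4% in T320. CTGF, a matricellular protein, stood at 587 CPM in C, 1450 CPM in T5, 3755 CPM in T40 and 2457 CPM in T320. IGFBP5 was at 181 CPM in T40, so its peak and that of CTGF fell in different populations.

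Of 41 listed genes of insulin and IGF signalling inside the cell, 38 were in the matrix. In T1, 4 of 28 measured genes were higher (PIK3CA and PIK3R1, subunits of PI3-kinase, RICTOR of mTORC2, and the transcription factor FOXO3) and 1 was lower (NRAS), beside 7.57% and 4.83% of all measured genes. In T5, 1 of 25 was higher (PIK3R1), at 104 CPM against 31.1 CPM in C, and none was lower, beside 7.87% and 4.72%. In T40, the adaptor IRS2 was the 1 of 24 that was higher, and the adaptor GRB10 and NRAS were lower, beside 8.88% and 8.76%. In T320, IRS2 was higher and GRB10, the adaptor SHC1 and NRAS were lower, of 25, beside 15.4% and 11.6%. The 3 of 25 lower in T320 is close to the 11.6% of all measured genes. IRS1 was at 6.10 CPM in C and 23.8 CPM in T5. The 2 measured IGF2 mRNA-binding proteins, IGF2BP2 and IGF2BP3, were not called in any of the 4 contrasts.

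The metadata table gives 8240 of the 18209 cells a state, C or S1 to S5. How cells and states were chosen was not stated in any source used, and the name of that table refers to G1. In 6 populations more than 1 state occurs (S1 and S2 in T2.5 and T5, S2 to S4 in T10 and T20, S3 and S4 in T40 and T80), so states with at least 50 cells can be set side by side within 1 library, where dose and library are shared. The states may have been drawn from the same counts, so these folds are descriptions.

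IGFBP3 was concentrated in S2. In T20, its level was 452 CPM in the 417 cells of S2, 45.4 CPM in the 149 cells of S3 and 24.2 CPM in the 74 cells of S4. In T10 the levels were 128, 34.5 and 22.1 CPM in the same order. S2 was also above S1, at 1.44-fold in T2.5 (136.7 against 94.9 CPM) and 1.71-fold in T5 (297 against 174 CPM). S2 thus held the highest IGFBP3 in each of the 4 libraries that contain it, and none of the 918 listed T40 cells was in S2. From T20 to T40 the level also fell in S3 (45.4 to 5.43 CPM) and S4 (24.2 to 6.81 CPM), with 3 UMIs in S3 of T40. In cells without a state it fell from 178 to 8.50 CPM. The part of the states in the drop was not tested.

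IGFBP6 was highest in S4 in all 4 libraries with that state. It stood at 99.4 CPM in S4 of T10 against 28.5 CPM in S2 and 34.5 CPM in S3, and at 169.6 CPM in S4 of T20 against 58.6 and 61.2 CPM. The fold of S4 over S3 was 2.88 in T10, 2.77 in T20, 3.13 in T40 and 10.6 in T80, with only 3 IGFBP6 UMIs in S3 of T80. IGFBP7 was also above S3 in S4 in each of these libraries, by 1.54-, 1.76-, 1.76- and 2.49-fold. IGFBP2 went the other way, at 0.530, 0.233, 0.351 and 0.380 of its S3 level in S4. Within 1 library, then, S3 cells held more IGFBP2 and S4 cells more IGFBP6 and IGFBP7.

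IGFBP5 did not keep 1 order of states. In T10 it was 1034 CPM in S2, 464 CPM in S3 and 269.5 CPM in S4, and in T20 it was 682 CPM in S2 against 347 CPM in S3 and 396 CPM in S4. S2 was the highest in both. S4 was below S3 in T40 (248 against 451 CPM) and above it in T80 (638 against 411 CPM). Within S4 the level in T80 was higher than in T40, so the T80 rise in IGFBP5 was present inside the state that holds 697 of 918 listed cells in T40 and 838 of 910 in T80. In S1 and S2 of T5 the levels were 1347 and 1209 CPM. For IGFBP4 the interval of the fold of S4 over S3 held 1 in all 4 libraries.

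**Figure D3:**
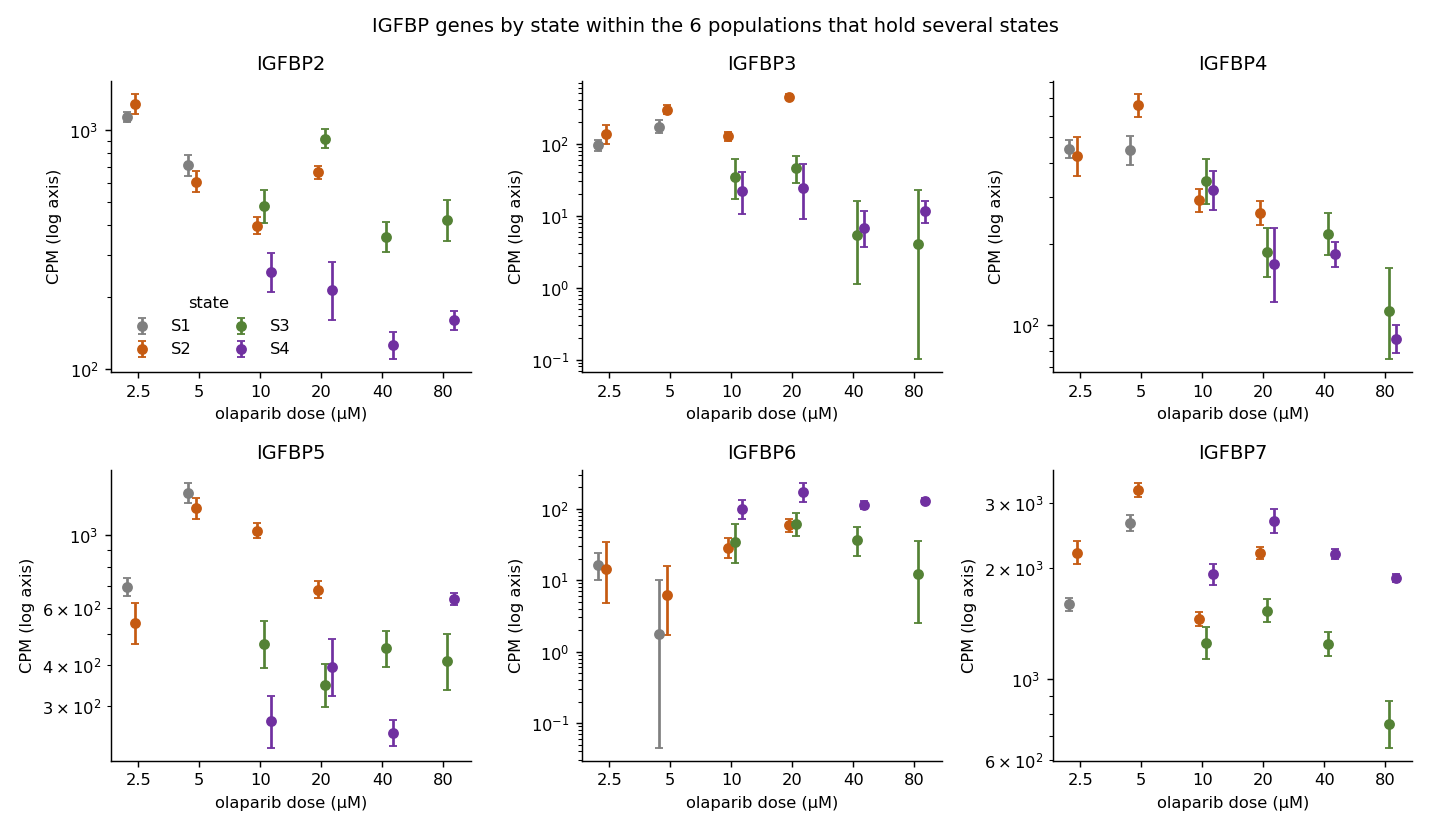
Level (CPM, log axes) of each IGFBP gene in states S1 to S4 within the 6 populations that hold several states, for states with at least 50 cells; bars are exact 95% Poisson intervals. IGFBP3 was highest in S2 and IGFBP6 in S4 wherever those states occur with others, except that S1 and S2 overlapped for IGFBP3 at 2.5 µM within their intervals.

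The cells with a state held more IGFBP5 than the cells without one, in 10 of 10 populations. IGFBP5 was at 113 CPM in the 453 listed cells of C and at 16.4 CPM in the other 1392, a fold of 6.90 (5.53 to 8.67). The fold was lowest in T5, at 1.61 (1273 against 789 CPM), and highest in T320, at 7.80 (106 against 13.6 CPM), with a median over populations of 3.96. In both sets of cells T320 stood below C, whereas over all cells C stood below T320 (46.6 against 53.1 CPM). The listed cells of C held 329 of its 435 IGFBP5 UMIs, and within listed cells the difference of T5 from C on the log2(CPM + 10) scale was 3.38 in place of 4.27.

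No other measured gene reached 1.5-fold in every population. Of 5984 genes with at least 100 UMIs in all and 50 CPM in 1 of the 20 sets of cells, IGFBP5 was the only one at least 1.5-fold higher in listed cells in all 10 populations on the scale with 10 CPM added (0.0167% of genes). The limit of 1.5 was set after the IGFBP5 values were seen. By the median log2 difference over populations, which needs no such limit, IGFBP5 ranked 1 of 5984 at 1.88, and TSC22D1 came next at 1.01. The medians of the other IGFBP genes were 0.57 for IGFBP3, 0.26 for IGFBP6, 0.21 for IGFBP7, 0.21 for IGFBP2 and 0.20 for IGFBP4. IGFBP7 was higher in listed cells in 10 of 10 populations too, by 1.08- to 1.43-fold, while IGFBP2 was lower in listed cells of T80 (0.754 of the unlisted level).

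Cell cycle transcripts and depth moved with this difference. The summed level of 12 G2/M transcripts, among them MKI67, TOP2A and CCNB1, was 289 to 633 CPM in listed cells and 2309 to 4593 CPM in unlisted cells, with no overlap. The name of the metadata table refers to G1, so the listing itself may have fixed this separation. The median UMIs per cell were higher in listed cells in every population, most of all in C, at 5946 against 1669.5. Among cells with at least 1500 and under 3000 UMIs, a range chosen after the values were seen, IGFBP5 was again higher in listed cells in 10 of 10 populations, by 1.57-fold in T5 (1.17 to 2.13) to 10.1-fold in C (3.77 to 33.8). The parts of depth and of cell cycle phase in the difference were not tested.

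**Figure D4:**
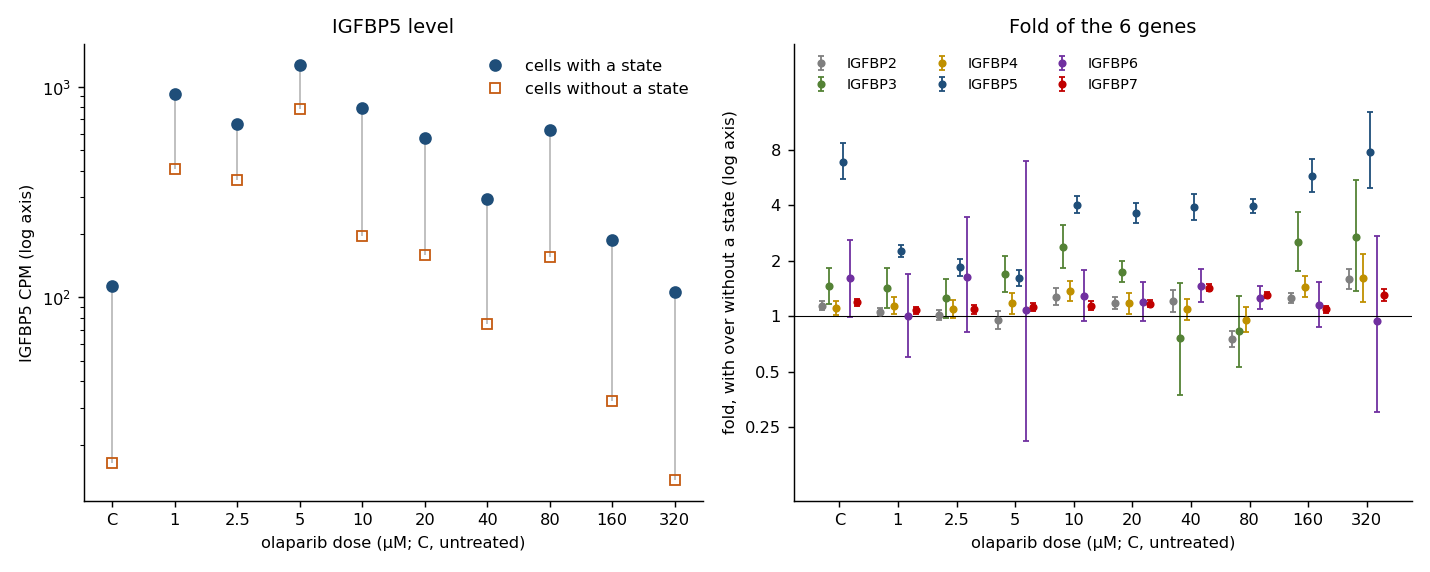
Left, IGFBP5 level (CPM, log axis) in cells with and without a state in each population; right, the fold between these cells for the 6 IGFBP genes (log axis, bars are exact 95% intervals that cover counting error). The IGFBP5 folds run from 1.61 at 5 µM to 7.80 at 320 µM, all above 1.

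Genes were ranked by the Pearson correlation of their log levels with IGFBP5 over the 10 populations. The 6 most alike were the methionine sulfoxide reductase MSRB3 (0.97), the semaphorin co-receptor PLXNA4 (0.92), LTBP1, which binds latent TGF-beta (0.92), the endothelin receptor EDNRA (0.91), the kinesin-associated KIFAP3 (0.91) and the fibrillar collagen COL3A1 (0.91). MSRB3 ran from 29.5 CPM in C to 106 CPM in T5 and 36.8 CPM in T320. PLXNA4 was instead highest in T1 (324 CPM) and LTBP1 in T10 (212 CPM). Only MSRB3 was among the 6 most alike by Spearman correlation as well, and only MSRB3 and PLXNA4 were when T5 was left out.

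For the other family members the nearest genes were different. IGFBP4 was most like DVL3 (0.99), ELF4 (0.98) and PPP4R3B (0.96), IGFBP2 most like GLMP (0.96), EMC1 (0.95) and NECTIN2 (0.95), and IGFBP3 most like RTN2, SERTAD3 and PDCD4 (0.93, 0.93 and 0.92). IGFBP7 was nearest to RHBDD2 (0.94), SPARCL1 (0.91) and EDNRA (0.91), so EDNRA stood near both IGFBP5 and IGFBP7. IGFBP6 was nearest to VTI1B, RGS4 and PTGDS (0.90, 0.89 and 0.89). PTGDS, a prostaglandin synthase, went from 15.8 CPM in C to 538 CPM in T80, the population where IGFBP6 was highest.

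Summed fibroblast and mural markers were highest in T5, as were IGFBP5 and IGFBP7, but did not follow them in every other population. Of 10 listed fibroblast markers, 5 were in the matrix, and DCN, LUM, COL1A2, POSTN and FAP were not analysed here. Their summed level was 69.7 CPM in C, 482 at 1 µM, 1075 at 2.5 µM, 2273 at 5 µM, 1747 at 10 µM, 506 at 20 µM, 374 at 40 µM, 193 at 80 µM, 186 at 160 µM and 144 at 320 µM. COL3A1 made up 1950 CPM of the sum in T5 and was listed at 0 in T320, while COL1A1 was highest in T10 (664 CPM). THY1 was about as high in T160 (172 CPM) as in T20 (173 CPM) and stood at 144 CPM in T320. The 4 of 6 mural and smooth muscle markers in the matrix summed to 426 CPM in C, 733 CPM in T1, 3073 CPM in T5, 2957 CPM in T40 and 297 CPM in T320. In T40 the mural sum was close to its T5 value while IGFBP5 was at 181 CPM, and in T1 both sums were well below T5 while IGFBP5 was at 723 CPM. The epithelial sum, over 9 of 10 markers, was 2000 CPM in C, 2425 CPM in T2.5, 1037 CPM in T5 and 482 CPM in T320, and was lowest in T160 (348 CPM). Its markers did not all move alike: from C to T5, KRT8 fell from 1027 to 553 CPM while CLDN4 rose from 32.2 to 89.1 CPM. The 3 endothelial markers of 5 in the matrix did not exceed 14.3 CPM in sum. Of the 8 immune markers only CD68 was in the matrix, at 0 to 43.9 CPM. The part of these programmes in the IGFBP levels was not tested.

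The pair on chromosome 2 peaked in different populations, and none of its neighbours in the matrix peaked in T5. Within 1 Mb of IGFBP2 and IGFBP5 the annotation has 45 genes, 10 of them protein-coding, and 9 of the 45 were in the matrix. XRCC5, the end-joining factor Ku80, went from 334 CPM in C to 242 CPM in T5 and 133 CPM in T80. The ribosomal protein gene RPL37A was at 4068 CPM in C and 4289 CPM in T5. MREG, PECR, TMEM169, SMARCAL1 and DIRC3 stayed at or below 19.1 CPM. IGFBP5 had the widest difference of T5 from C of these 9 genes, but it was picked out for its T5 level. Genes at such low levels can also fall only a little on the log2(CPM + 10) scale, so nothing is read from that order.

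Within populations, members were mostly detected in the same cells about as often as their separate shares would give. In cells thinned to 1000 UMIs, 27.7% of T1 cells had both IGFBP5 and IGFBP7, against 27.3% from the product of the shares. In T10, 2.06% of cells had both IGFBP3 and IGFBP5, against a product of 1.21%. IGFBP4 was found in 32.6% of the T10 cells with IGFBP3 and in 22.3% of those without it, and in 43.2% and 29.3% in T2.5. Such shares rest on sparse counts and are given as values only.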

How the data were processed

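The authors deposited UMI counts per gene and cell, with no normalization, for 10 single-cell libraries of Kuramochi (1 per population), and a metadata table with UMI counts and genes per cell, the mitochondrial fraction and a state for 8240 cells. Per the submitters' processing notes, Seurat 2.3.2 and the build GRCh38 (hg38) were used. No source used names the aligner, the cell filters or the strand setting. The 6 genes and all lists were chosen with earlier results of these data known.

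Cells were kept as deposited, with no doublet call. All 8240 listed cells were joined by population and barcode. Full cell names were equal for the 7322 outside T40 and differed for the 918 of T40. UMI totals were equal for all 8240. Counts were summed per population or state with Python 3.11.15, scaled to CPM and compared on log2(CPM + 10). Intervals are exact (Poisson, conditional for folds, Clopper-Pearson for shares). Alternatives were TMM (edgeR 4.0.16), DESeq2 1.42.0 size factors, other pseudocounts, other CPM minimums, equal weight per cell, listed cells only and other thinning. Named genes were the 6 members, the most changed and a few fixed genes of each list, the genes most alike in pattern and chromosome 2 neighbours; others behind a count of 5 or fewer, TSC22D1 and the G2/M list were picked after values were seen. The call rule was tested on simulated data. 1 listed gene is counted but not reported by name here.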

Additional observations from a re-analysis of the deposited data

Results flagged for a closer look

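Comparisons between states for IGFBP2 and IGFBP5 went opposite ways in different libraries, beyond counting error within each; the difference between the libraries was not tested. IGFBP2 in S2 over S1 was 1.13 in T2.5 and 0.852 in T5. IGFBP5 in S4 over S3 was 0.581 in T10 and 0.55 in T40, but 1.55 in T80, where S3 had 72 cells.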

How the results depend on the processing

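IGFBP3 to IGFBP7 kept the population with the highest level under all 4 alternatives tried for it. IGFBP2 was highest at 1 µM, not 2.5 µM, with each cell given equal weight and without the deepest 5% of cells. The log2 difference of IGFBP5 in T5 from C was 4.27, and 4.51 with a pseudocount of 1, 3.55 with 50 and 3.38 in listed cells. With a minimum of 200 CPM, listed pathway genes higher than C numbered 2 in T1 (6 at 50 CPM), 3 in T5 (7), 5 in T40 (9) and 4 in T320 (7), lower ones 0 in T1 (1), 0 in T40 (2) and 1 in T320 (3), and IGFBP genes higher in T40 numbered 0 (2). Fewer genes are measured at that minimum. Of all measured genes there, 88 of 1021 were higher in T1, 89 of 1001 in T5, 101 of 1022 in T40 and 162 of 1083 in T320. The lower ones numbered 61 in T1, 71 in T5, 108 in T40 and 214 in T320. With no minimum, 2 pathway genes were lower in T1 and 2 IGFBP genes in T40 (1 in the report). TMM gave 2 lower pathway genes in T1, and in T320 2 lower IGFBP genes and 7 lower pathway genes; DESeq2 size factors gave 2 and 5 in T320. A pseudocount of 1 gave 3 lower pathway genes in T1. The counts of all measured genes moved as well. Of 4617 genes in T320, 537 were lower in the report, 821 under TMM and 772 under DESeq2 size factors. Of 4186 genes in T1, 202 were lower in the report, 245 under TMM and 287 with a pseudocount of 1. With no minimum, 260 of 11387 genes were lower in T1 and 543 in T40. The share of cells with an IGFBP5 UMI, 4.12% in C, 43.1% in T5 and 4.22% in T320, was 9.32%, 55.8% and 5.92% without thinning and 2.01%, 34.9% and 2.55% after thinning to 700 UMIs. Of the 6 genes most like IGFBP5, 1 was kept by Spearman correlation and 2 without T5. Folds of at least 2 in either direction over all libraries turned within 1 library for IGFBP3 in S4 over S3 (1.25 in T40, 2.86 in T80), IGFBP4 in S4 over S2 (1.09 in T10) and IGFBP6 in S2 over S1 (0.906 in T2.5), each with an interval that held 1. Smaller folds over all libraries also turned, with intervals that excluded 1: IGFBP2 in S2 over S1 (0.558; 1.13 in T2.5) and S3 over S2 (0.925; 1.21 in T10, 1.38 in T20), IGFBP4 in S2 over S1 (0.995; 1.47 in T5), IGFBP5 in S4 over S3 (1.12; 0.581 in T10, 0.55 in T40) and IGFBP7 in S4 over S2 (0.964; 1.32 in T10, 1.22 in T20). IGFBP4 in S3 over S2 (0.618) was 1.18 in T10, with an interval that held 1. Where no cause is named, the cause was not tested. No paired analysis was possible because each population is 1 library. Dose, passage and library cannot be told apart here, and counts under about 20 UMIs, as for IGFBP6 in T5 and T320, leave wide intervals.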
